A study of Mus musculus with 6 samples.

Results

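Genes of protein folding, quality control and disposal in the endoplasmic reticulum (ER) were followed in mouse liver. The set held 36 genes, taken by function: chaperones and their co-factors, enzymes of disulfide bond formation, genes of ER-associated degradation, genes of protein translocation into the ER, and the stress sensors with their target Xbp1. Of these, 34 were found by their symbol among the 22173 gene symbols of the deposited table, and Ero1l and Ero1lb were found under their current symbols Ero1a and Ero1b. A filter on low values passed 35 of the 36, and Derl3 was left out. The 6 libraries came from livers of wild-type mice that all received the HFHC diet for 16 weeks from an age of 6 weeks. Of these mice 3 were dosed during the final 4 weeks with DDK, a small molecule that the series title calls a limonoid (a class of plant triterpenoids), and 3 with vehicle. HFHC and DDK are not spelled out in the labels. No group on a control diet was analysed here, so each difference is one between DDK and vehicle on the same diet. Shared litters, cages or dosing days are not stated. The series was designed to ask how DDK acts against metabolic dysfunction-associated steatohepatitis, the inflammatory form of fatty liver disease.

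Secreted and membrane proteins enter the ER through the SEC61 channel, are folded there by chaperones and disulfide isomerases, and are sent back to the cytosol for degradation when folding fails. The unfolded protein response matches this capacity to the load. Its sensors are ATF6 (encoded by Atf6), a membrane-bound transcription factor released by cleavage, IRE1 (Ern1), which splices the Xbp1 messenger RNA, and PERK (Eif2ak3), a kinase that slows translation. Hepatocytes secrete most plasma proteins and have an extensive ER, and this response is known to be engaged in fatty liver. ATF6 and spliced XBP1 act through the ER stress response element (ERSE), which was described in promoters of ER chaperone genes, so its presence in members is not independent of how such genes are known.

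The ERSE is shown because it is a sequence that many of these genes share. The genes were listed by function, but for the reason just given their share with an ERSE is not an independent enrichment. RefSeq promoters on GRCm38.p6 (250 bases before to 50 after each transcription start) were at hand for 31 of the 36 genes, and none was at hand for Hyou1, Manf, Derl1, Sec61a1 and Atf6. The ERSE was searched on both strands as CCAAT followed, after any 9 bases, by CCACG. It was found in 39 of 32851 promoters (0.119%), belonging to 37 of 27025 genes (0.137%), and 10 of those 37 genes were members (32.3% of the 31). The related ERSE-II (ATTGG, any 1 base, then CCACG) was found in 0.0365% of promoters and in 2 members, Herpud1 and, after its start, Dnajb11. The element UPRE (TGACGTGG), which shares the letters CCACG with the other elements when read on the opposite strand, was found in 0.676% of promoters and in 0 members. A match describes letters in this window and not a bound site, and a gene without a match only lacks those letters there. The following stretches give the element in capitals with 12 bases on each side, read in the direction of the element.
The 5 genes with an ERSE whose transcripts fell in DDK livers are given first.
Hspa5 (chr2:34772013-34772055, + strand): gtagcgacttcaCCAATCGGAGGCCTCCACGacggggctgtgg
Creld2 (chr15:88819508-88819550, - strand): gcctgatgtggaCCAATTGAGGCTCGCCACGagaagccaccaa
Pdia6 (chr12:17266479-17266521, + strand): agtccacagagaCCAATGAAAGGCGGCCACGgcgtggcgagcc
Canx (chr11:50325788-50325830, - strand): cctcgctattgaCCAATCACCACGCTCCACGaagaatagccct
Dnajc3 (chr14:118937815-118937857, + strand): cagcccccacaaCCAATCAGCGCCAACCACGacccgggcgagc
The genes with an ERSE whose difference did not pass the test follow, Hsp90b1 with both of its elements.
Hsp90b1 (chr10:86705626-86705668, - strand): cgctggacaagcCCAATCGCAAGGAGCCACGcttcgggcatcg
Hsp90b1 (chr10:86705521-86705563, + strand): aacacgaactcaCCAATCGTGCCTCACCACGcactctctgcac
Calr (chr8:84847063-84847105, + strand): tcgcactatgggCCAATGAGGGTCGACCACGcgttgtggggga
Ero1b (chr13:12565670-12565712, - strand): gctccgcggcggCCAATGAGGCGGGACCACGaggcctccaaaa
Syvn1 (chr19:6046520-6046562, + strand): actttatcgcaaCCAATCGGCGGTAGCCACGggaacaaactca
Derl3, which was too low to test, also holds an ERSE, and Herpud1 holds the ERSE-II.
Derl3 (chr10:75893230-75893272, - strand): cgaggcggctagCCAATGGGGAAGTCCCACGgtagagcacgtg
Herpud1 (chr8:94386365-94386399, + strand): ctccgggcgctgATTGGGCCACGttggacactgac

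The 250 bases before the start are given whole for Hspa5 and Hsp90b1, the ER members of the HSP70 and HSP90 chaperone families, because both hold the ERSE and only the Hspa5 transcript passed the test. Capitals mark exact matches to the ERSE on either strand. Hspa5 holds 1 match, between 65 and 47 bases before its start.
Hspa5 (chr2:34771840-34772089, + strand): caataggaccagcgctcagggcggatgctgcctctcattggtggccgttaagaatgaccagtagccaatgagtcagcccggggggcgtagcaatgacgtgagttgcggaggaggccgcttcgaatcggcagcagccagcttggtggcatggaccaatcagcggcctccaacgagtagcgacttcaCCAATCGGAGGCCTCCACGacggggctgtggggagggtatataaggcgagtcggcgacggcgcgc
Hsp90b1 holds a match on the gene's own strand between 212 and 194 bases before its start, and another on the opposite strand between 107 and 89.
Hsp90b1 (chr10:86705445-86705694, - strand): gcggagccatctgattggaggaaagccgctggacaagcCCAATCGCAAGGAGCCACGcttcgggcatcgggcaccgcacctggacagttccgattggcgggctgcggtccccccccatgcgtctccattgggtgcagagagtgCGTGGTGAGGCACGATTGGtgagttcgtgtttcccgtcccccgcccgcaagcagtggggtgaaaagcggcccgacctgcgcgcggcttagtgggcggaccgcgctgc

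The libraries held 26576291 to 30237490 fragments in DDK and 33963898 to 36105315 in vehicle, recovered from the FPKM values (a gene's fragments divided by its length in kilobases and by the size of the library). On log2(FPKM + 1), tested by limma with Benjamini-Hochberg adjustment over 10681 genes and called at an adjusted p under 0.05, 30.3% of all genes were lower and 10.2% higher in DDK. Vehicle replicate 1 lay nearest to the DDK livers on the main axis of variation. Markers of other cells moved with the groups: of 13 markers of macrophages and Kupffer cells 8 fell and 0 rose (summed FPKM 197 to 493 in DDK and 656 to 1071 in vehicle), and 8 of 11 stellate cell markers fell and 0 rose (158 to 201 against 244 to 275). Of 11 hepatocyte markers 7 rose and 1 fell (58709 to 62132 against 32151 to 43237). Of 8 endothelial markers 3 fell, of 5 cholangiocyte markers tested 1 rose, of 2 neutrophil markers tested 1 fell, and 0 of 2 T and NK cell markers and 0 of 1 exocrine pancreas marker passed limma's test (at an unadjusted p under 0.05, 0 and 1, and by voom 0 and 0). The pancreas markers Cpa1, Prss2 and Pnlip were at 0 in every library. The 8 plasma and B cell markers, of a cell type rich in ER, summed to an FPKM of 2.67 to 5.26 in DDK and 3.92 to 5.11 in vehicle, and 0 of the 3 tested passed limma's test (0 at an unadjusted p under 0.05, and 0 by voom); none of the 8 was at 0 in every library. The part of these cell types in the results was not tested, and in whole liver fewer cells of a type and less RNA per cell cannot be told apart.

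Transcripts of the ER set were more often lower in DDK livers than those of all genes. The share of lower genes was highest among the sensors with Xbp1 (3 of 4) and the chaperones (9 of 12). Disulfide formation had 3 of 7 lower, degradation 3 of 8 and translocation 0 of 4. Of the 35 genes tested, 18 fell and 2 rose, against 30.3% and 10.2% of all genes, so that 51.4% of them fell and 5.71% rose. Their median log2 fold change was -0.51, and that of all genes was -0.23. The groups did not overlap with DDK below vehicle in 21 of the 35 genes (39.2% of all genes) and with DDK above vehicle in 2 (14.1% of all genes). The 36 genes together took 0.512%, 0.459% and 0.537% of the fragments in DDK replicates 1 to 3 and 0.598%, 0.686% and 0.632% in vehicle replicates 1 to 3. Each DDK liver thus had a smaller share of its fragments on the set than any vehicle liver, before any rescaling. Median-ratio scaling divides each library by the median ratio of its genes to their geometric mean over the libraries. Those factors were also lower in DDK (0.929, 0.867 and 0.934) than in vehicle (1.02, 1.14 and 1.19). The shares were not divided by them, so they do not show a fall beyond that of genes at large. DDK replicate 2 was the lowest DDK liver in 29 of the 35 genes (43.4% of all genes), and vehicle replicate 1 the lowest vehicle liver in 19 (53.2% of all genes). Without DDK replicate 2, 10 members fell and 1 rose (16.3% and 5.71% of all genes). Without vehicle replicate 1, 21 fell and 2 rose (40.5% and 12.7% of all genes).

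**Figure D1:**
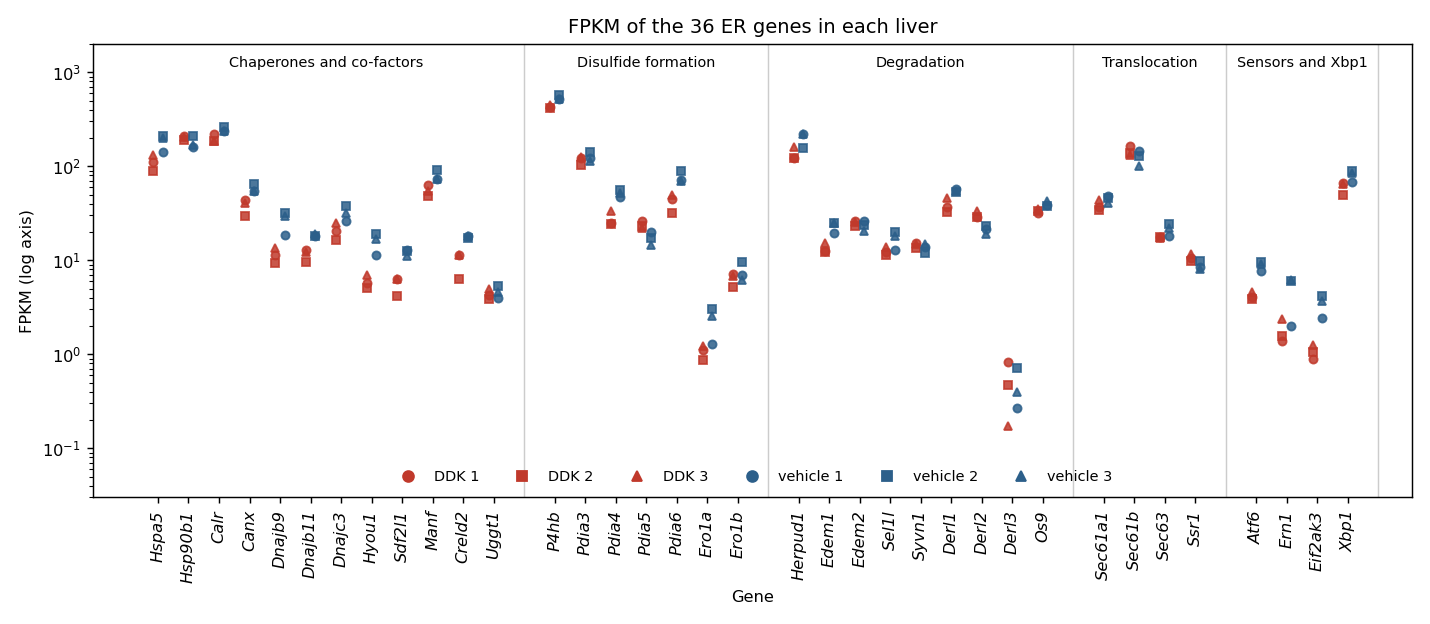
FPKM on a log axis of the 36 ER genes in each of the 6 livers, grouped by role, with DDK in red and vehicle in blue and a symbol for each replicate. P4hb stands highest (420 to 445 in DDK and 520 to 570 in vehicle), Derl3 lowest, and Atf6 and Eif2ak3 show no overlap between the groups.

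All 3 sensor transcripts fell in DDK livers, whereas Xbp1 did not pass the test. After median-ratio scaling only Atf6 and Eif2ak3 were lower (2 of 4, against 16.2% of all genes). Atf6 (chromosome 1, 170704674 to 170867771 in GENCODE M21 on GRCm38) stood at an FPKM of 4.03, 3.90 and 4.61 in DDK replicates 1 to 3 and at 7.73, 9.60 and 9.22 in vehicle replicates 1 to 3. The highest DDK liver was below the lowest vehicle liver, and the log2 fold change was -0.93 ± 0.14 SE (limma, adjusted p = 0.00184). Eif2ak3 (chromosome 6, 70844515 to 70905245), which encodes PERK, stood at 0.900, 1.06 and 1.25 in DDK and at 2.44, 4.14 and 3.69 in vehicle. These groups did not overlap either, and the mean in DDK was 0.313 of that in vehicle (log2 fold change -1.08 ± 0.17 SE, adjusted p = 0.00208). Part of an Eif2ak3 exon overlaps Gm43292 on the opposite strand, and the library kit does not mark strand, so reads of that stretch cannot be told apart. Ern1 (chromosome 11, 106394650 to 106487852), which encodes IRE1, stood at 1.38, 1.55 and 2.40 in DDK and at 2.02, 6.01 and 6.20 in vehicle. Vehicle replicate 1 lay inside the DDK range while the other vehicle livers lay well above it (log2 fold change -0.96 ± 0.31 SE, adjusted p = 0.0327). The Ern1 call was lost under 8 of 19 other ways of processing, with adjusted p values up to 0.125. Xbp1 (chromosome 11, 5520659 to 5525893), whose messenger RNA IRE1 splices, stood at 66.6, 50.0 and 64.7 in DDK and at 68.8, 89.8 and 85.3 in vehicle. Its groups did not overlap, by a narrow margin between DDK replicate 1 and vehicle replicate 1, and its log2 fold change of -0.42 ± 0.16 SE had an adjusted p of 0.0538. Its adjusted p was 0.0118 on the TPM scale, 0.00986 when libraries were weighted and 0.0168 when vehicle replicate 1 was dropped. Gene-level FPKM sum the spliced and unspliced forms of Xbp1, so splicing was not measured, nor was cleavage of ATF6 or phosphorylation of PERK.

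Of the 12 chaperones and co-factors 9 fell and 0 rose (75%, against 30.3% of all genes), with a median log2 fold change of -0.63. After median-ratio scaling 4 fell and 1 rose, where 16.2% of all genes were lower and 18% higher. Hyou1 (chromosome 9, 44379490 to 44392369), a large HSP70-related chaperone and nucleotide exchange factor, fell furthest. It stood at an FPKM of 5.67, 5.07 and 7.0 in DDK and at 11.3, 19.0 and 16.7 in vehicle, with no overlap (log2 fold change -1.25 ± 0.20 SE, adjusted p = 0.00197). Dnajb9, a J-domain co-chaperone that binds IRE1, stood at 11.4, 9.36 and 13.4 in DDK and at 18.5, 32.1 and 29.6 in vehicle (-1.14 ± 0.21 SE, adjusted p = 0.00352). Again the groups were apart, and vehicle replicate 1 was the vehicle liver nearest to DDK for both genes. Sdf2l1, a partner of ER J-domain proteins, stood at 6.37, 4.14 and 6.39 in DDK and at 12.7, 12.5 and 11.1 in vehicle (-1.0 ± 0.17 SE, adjusted p = 0.00263). Creld2, a secreted ER stress protein, stood at 11.5, 6.32 and 11.5 in DDK and at 18.0, 17.3 and 18.1 in vehicle (-0.84 ± 0.20 SE, adjusted p = 0.0106). For Sdf2l1 and Creld2 the vehicle livers lay close together and DDK replicate 2 was the lowest of all livers.

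Hspa5 (chromosome 2, 34771970 to 34777547), which encodes BiP, the main HSP70 chaperone of the ER and a regulator of all 3 sensors, stood at an FPKM of 111, 88.0 and 132 in DDK and at 142, 211 and 198 in vehicle. The groups did not overlap, and the DDK mean was 0.600 of the vehicle mean (log2 fold change -0.73 ± 0.19 SE, adjusted p = 0.0147). That call was lost after median-ratio scaling (0.0797), without a filter (0.0539), without DDK replicate 2 (0.0685) and without vehicle replicate 3 (0.0620). The lectin chaperone Canx (-0.62), the J-domain proteins Dnajb11 (-0.64) and Dnajc3 (-0.61), the latter an inhibitor of PERK, and the secreted factor Manf (-0.51) fell too. After median-ratio scaling all 4 lost their call, at -0.33 for Canx, -0.36 for Dnajb11, -0.33 for Dnajc3 and -0.22 for Manf. Of 19 alternatives the call was lost in 8 for Dnajc3, in 4 for Canx, in 3 for Manf and in 1 for Dnajb11. Hsp90b1, the ER HSP90, did not fall with Hspa5: it stood at 212, 189 and 206 in DDK and at 161, 211 and 168 in vehicle, with overlapping groups (0.17 ± 0.14 SE, adjusted p = 0.336). Hsp90b1 was higher in DDK after median-ratio scaling (adjusted p = 0.0398) and after a correction for gene length (0.0284). Calr, the soluble lectin chaperone, stood at -0.31 ± 0.13 SE (adjusted p = 0.0739), with DDK livers at 186 to 222 and vehicle livers at 240 to 260. Calr was lower after quantile normalization (-0.45, 0.0308), on the TPM scale (-0.55, 0.00671) and with library weights (0.0459), and stood at -0.02 after median-ratio scaling. Uggt1, which marks misfolded glycoproteins for another round of folding, stood at -0.07 ± 0.15 SE with overlapping groups.

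Among the 7 genes of disulfide formation 3 fell and 1 rose as deposited (42.9% and 14.3%, against 30.3% and 10.2% of all genes). After median-ratio scaling 2 fell and 1 rose (16.2% and 18% of all genes). After quantile normalization 3 fell and 1 rose (16.3% and 17.7% of all genes), and on the TPM scale 4 fell and 0 rose (46.1% and 5.91%). Pdia4 stood at an FPKM of 25.2, 24.3 and 33.8 in DDK and at 47.5, 55.3 and 52.4 in vehicle (log2 fold change -0.89 ± 0.15 SE, adjusted p = 0.00268). Pdia6 stood at 44.6, 31.9 and 49.9 in DDK and at 72.3, 90 and 69.4 in vehicle (-0.87 ± 0.18 SE, adjusted p = 0.00553). In both of these isomerases every DDK liver was below every vehicle liver. Ero1a, the oxidase that recharges the isomerases, rested on as few as 101 fragments in a library, the fewest of any tested member. It stood at 1.11, 0.860 and 1.22 in DDK and at 1.30, 3.04 and 2.55 in vehicle (-0.64 ± 0.20 SE, adjusted p = 0.0310). Its vehicle replicate 1 was close to the DDK livers, and its call was lost under 8 of 19 alternatives. Its relative Ero1b, at the higher mean level of 6.40 ± 1.07 in DDK and 7.59 ± 1.81 in vehicle (SD, n = 3 per group), did not pass (-0.21, adjusted p = 0.385).

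Pdia5 went the other way within the same enzyme family. It stood at an FPKM of 26.3, 23.1 and 22.3 in DDK and at 20.1, 17.4 and 14.6 in vehicle, so that every DDK liver was above every vehicle liver (log2 fold change 0.45 ± 0.15 SE, adjusted p = 0.0350). Its call was lost after rescaling to TPM (0.203), without a filter (0.0608) and when DDK replicate 1 (0.133) or 2 (0.0876) or vehicle replicate 2 (0.0764) or 3 (0.137) was left out. The most abundant isomerase, P4hb, stood at 429, 420 and 445 in DDK and at 520, 570 and 522 in vehicle. The groups of P4hb did not overlap, and its log2 fold change was -0.32 ± 0.12 SE (adjusted p = 0.0654). P4hb was lower after quantile normalization (-0.69, 0.00512), on the TPM scale (-0.55, 0.00599), with library weights (0.0168) and on leaving out vehicle replicate 1 (0.0341), and stood at -0.02 after median-ratio scaling. Pdia3, the isomerase that works with calnexin and calreticulin, stood at -0.12 ± 0.14 SE with overlapping groups (adjusted p = 0.519).

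Of 8 tested genes of ER-associated degradation 3 fell and 1 rose (37.5% and 12.5%), near the 30.3% and 10.2% of all genes. After median-ratio scaling 1 fell and 1 rose (16.2% and 18% of all genes). On the TPM scale 5 fell and 0 rose (46.1% and 5.91% of all genes). Edem1, which directs misfolded glycoproteins to disposal, stood at an FPKM of 12.5, 12.1 and 15.4 in DDK and at 19.3, 24.9 and 24.9 in vehicle, with no overlap (log2 fold change -0.74 ± 0.15 SE, adjusted p = 0.00534). Its paralogue Edem2 stood at 0.08 ± 0.13 SE with overlapping groups. Herpud1, a scaffold of the degradation complex, stood at 123, 122 and 160 in DDK and at 221, 158 and 220 in vehicle (-0.56 ± 0.17 SE, adjusted p = 0.0279). Here vehicle replicate 2, not replicate 1, was the low vehicle liver and lay within the DDK range, and the call was lost under 7 of 19 alternatives. Derl1 and Derl2, related membrane proteins of the retrotranslocation machinery, moved in opposite directions. Derl1 stood at 37.0, 32.8 and 45.9 in DDK and at 56.6, 53.6 and 54.0 in vehicle (-0.51 ± 0.14 SE, adjusted p = 0.0197). Derl2 stood at 29.1, 29.1 and 33.1 in DDK and at 21.6, 23.2 and 19.0 in vehicle (0.50 ± 0.13 SE, adjusted p = 0.0146). Neither gene's groups overlapped, and their signs held under every scaling. The Derl1 call was lost under length correction (0.207), median-ratio scaling (0.286) and quantile normalization (0.0724), and on leaving out DDK replicate 1 (0.0700) or 2 (0.0916) or vehicle replicate 3 (0.0597). The Derl2 call was lost under TPM (0.128) and on leaving out vehicle replicate 3 (0.0652). Derl2 shares exon bases with Mis12 on the opposite strand. Derl3 was at 0.828, 0.476 and 0.172 in DDK and 0.268, 0.719 and 0.394 in vehicle, which rests on 7 to 33 fragments a library. The ubiquitin ligase Syvn1 (0.10 ± 0.13 SE), its partner Sel1l (-0.40 ± 0.18 SE, adjusted p = 0.0948) and the lectin Os9 (-0.25 ± 0.12 SE, adjusted p = 0.119) did not pass. Sel1l was lower on the TPM scale (0.0285), with library weights (0.00464) and on leaving out vehicle replicate 1 (-0.58, 0.00743), and Os9 on the TPM scale (0.0162) and with library weights (0.0376). Syvn1 was higher after length correction (0.0399).

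Of the 4 translocation genes 0 passed limma's test, at log2 fold changes from -0.26 to 0.25 (0 at an unadjusted p under 0.05, and 0 by voom). Sec63, the J-domain protein that recruits BiP to the channel, stood at an FPKM of 17.8, 17.8 and 17.1 in DDK and at 18.0, 24.5 and 21.9 in vehicle (-0.26 ± 0.14 SE, adjusted p = 0.150). Its DDK livers lay within a very narrow range, just below vehicle replicate 1. Ssr1, a subunit of the translocon-associated complex, stood at 10.6, 9.78 and 11.6 in DDK and at 8.41, 9.90 and 8.14 in vehicle (0.25 ± 0.14 SE, adjusted p = 0.169). The channel subunits Sec61a1 (-0.23 ± 0.14 SE) and Sec61b (0.22 ± 0.16 SE) stood in opposite directions with overlapping groups. Ssr1 was higher after median-ratio scaling (adjusted p = 0.0162), quantile normalization (0.0165) and length correction (0.0159). Sec63 was lower on the TPM scale (0.0286), with library weights (0.0245) and on leaving out vehicle replicate 1 (-0.38, 0.0222). Sec61a1 was lower on the TPM scale (0.0210), and Sec61b was lower after length correction (-0.38, 0.0379).

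**Figure D2:**
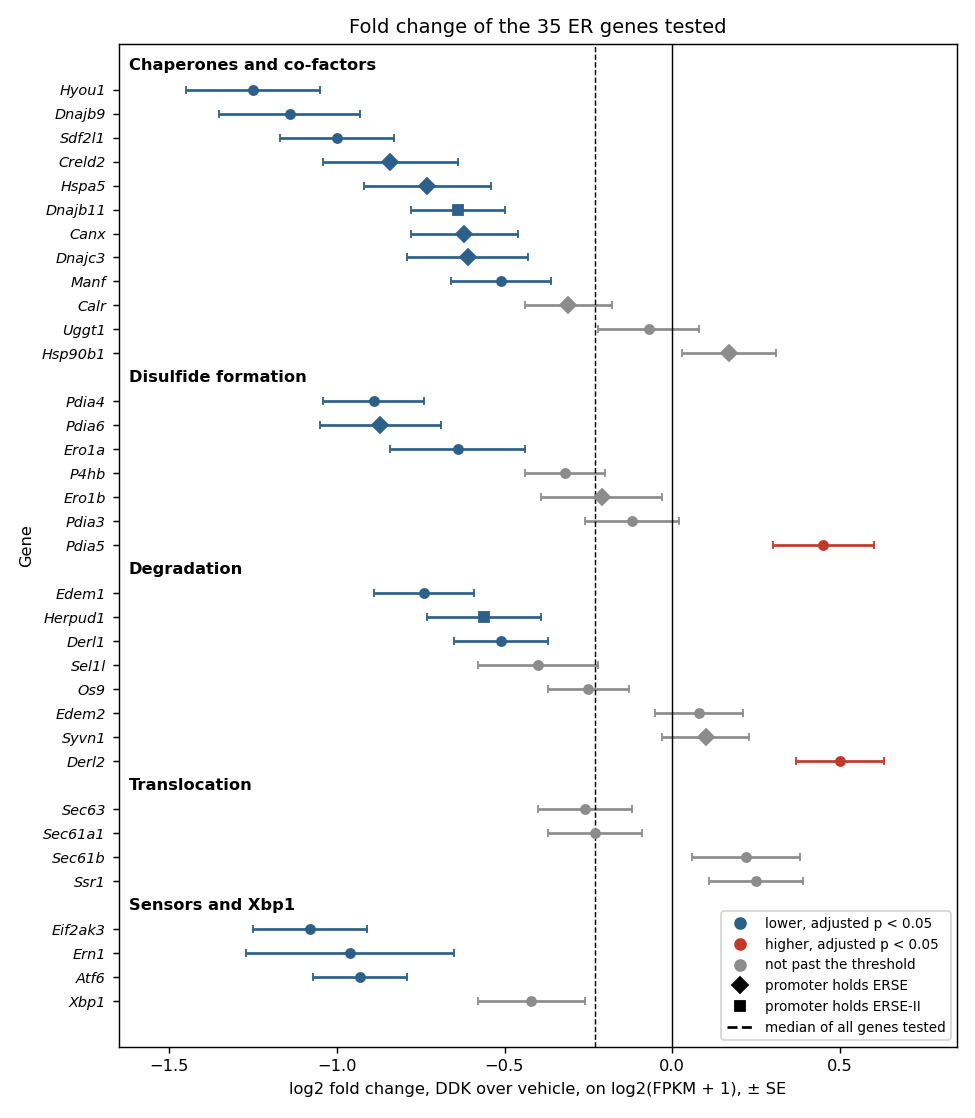
Log2 fold change of DDK over vehicle with its SE for the 35 ER genes tested, grouped by role, with blue for lower, red for higher and grey for genes not past the threshold, and with diamonds and squares for promoters that hold the ERSE or the ERSE-II. The sensors and most chaperones lie left of the median of all genes (-0.23, dashed), the translocation genes lie on either side of 0, and genes with the ERSE range from -0.87 to 0.17.

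Genes that share the ERSE had mixed calls. Over all genes tested 30.3% fell and 10.2% rose. Of the 9 tested members with an ERSE 5 fell and 0 rose, with a median log2 fold change of -0.61 and a range from -0.87 (Pdia6) to 0.17 (Hsp90b1). Of the 21 tested members whose promoter held none 9 fell and 2 rose, with a median of -0.40 and a range from -1.14 (Dnajb9) to 0.50 (Derl2). Herpud1 and Dnajb11, which hold the ERSE-II and fell, are among these 21. Hyou1, Manf, Derl1 and Atf6, which fell, and Sec61a1, which did not pass, had no promoter at hand and are in neither set. After median-ratio scaling Creld2 and Pdia6 were the only members with an ERSE still lower, and Hsp90b1 was higher (16.2% and 18% of all genes). The difference between the sets with and without an ERSE was not tested. Among the 6 tested genes outside the set that hold an ERSE 2 fell and 1 rose. Hspa5 and Hsp90b1, whose promoters are printed above, both hold the element, and the FPKM of Hspa5 divided by that of Hsp90b1 in the same liver was 0.523, 0.466 and 0.642 in DDK and 0.883, 1.0 and 1.18 in vehicle.

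A single scaling factor per library cancels in such a ratio, whereas quantile normalization and length correction can move it. The pairs were picked after their values were seen, so groups that lie apart follow from the choice, and the ratios are given as a description without a test. Pdia4 over Pdia3 was 0.208, 0.239 and 0.270 in DDK and 0.389, 0.387 and 0.463 in vehicle. Pdia5 over Pdia4 was 1.04, 0.949 and 0.660 in DDK and 0.423, 0.314 and 0.279 in vehicle. Derl2 over Derl1 was 0.786, 0.887 and 0.721 in DDK and 0.382, 0.432 and 0.351 in vehicle. Atf6 over the channel subunit Sec61a1 was 0.109, 0.113 and 0.106 in DDK and 0.158, 0.211 and 0.226 in vehicle, with no overlap.

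**Figure D3:**
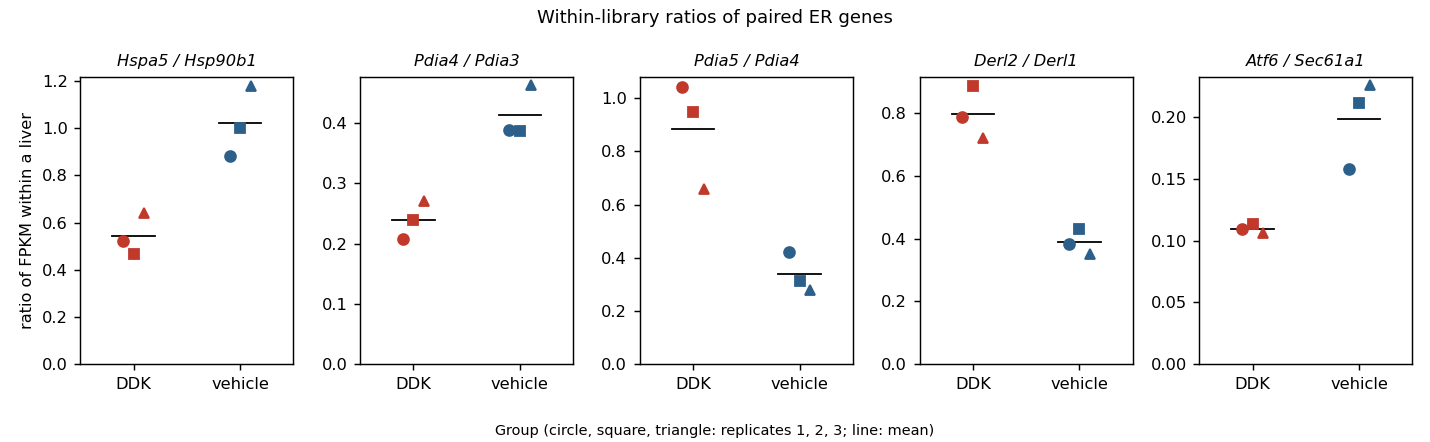
Ratio of FPKM between paired ER genes within each liver, for DDK (red) and vehicle (blue), with a symbol for each replicate and a line at the group mean. In none of the 5 pairs do the groups overlap.

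The median of all genes was -0.23 as deposited, and the number of ER genes called differed with the scaling. After median-ratio scaling, which brought the median of all genes to -0.01, 9 members fell and 4 rose, against 16.2% and 18% of all genes. As deposited, the split was 18 lower to 2 higher. After quantile normalization 16 fell and 3 rose (16.3% and 17.7% of all genes), under TPM 25 fell and 0 rose (46.1% and 5.91% of all genes), and after length correction 13 fell and 5 rose (17.3% and 16.1%). Without a filter 13 fell and 1 rose (15.1% and 5.21%), and with the replicate number as a block 18 fell and 2 rose (28.9% and 9.85%). Relative to all genes, the median of the set was -0.21 to -0.40 over the deposited and the 4 other scalings, and that of the sensors at -0.63 to -0.79. The median of the chaperones relative to all genes was -0.34 to -0.49. A core of 9 genes was lower in each of the 20 fits run: Atf6, Eif2ak3, Hyou1, Dnajb9, Sdf2l1, Creld2, Pdia4, Pdia6 and Edem1. The other 9 lower genes lost their call in at least 1 fit, and neither Pdia5 nor Derl2 was higher in all fits.

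**Figure D4:**
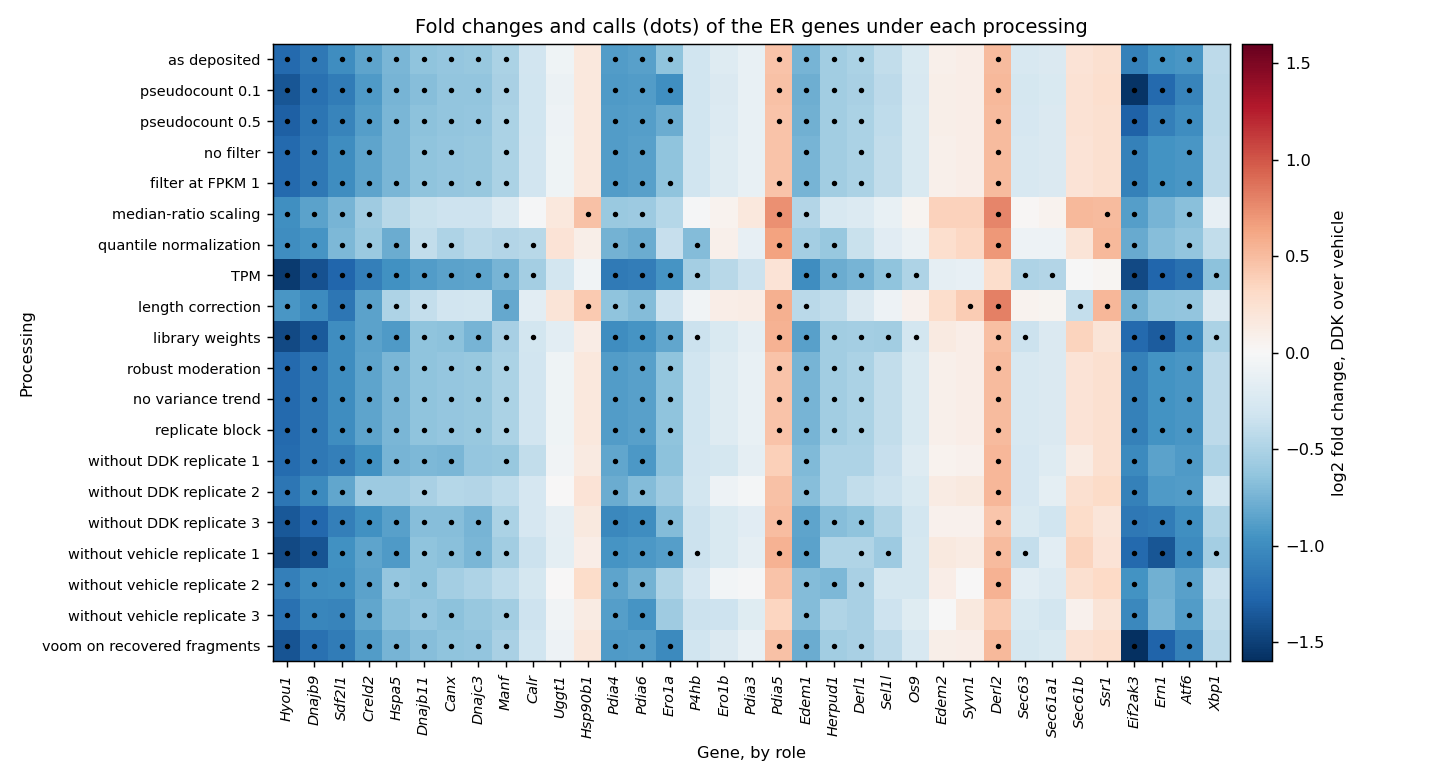
Log2 fold change of the 35 ER genes (columns, by role) under each of the 20 fits (rows), in blue for lower and red for higher in DDK, with a dot where the adjusted p was under 0.05. The columns of Hyou1, Dnajb9, Sdf2l1, Creld2, Pdia4, Pdia6, Edem1, Eif2ak3 and Atf6 carry a dot in every row, and median-ratio scaling and TPM move the whole picture in opposite directions.

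Other genes of the same pathways, listed by function, were also measured, 113 of 118 past the filter. Of these 36 fell and 12 rose (31.9% and 10.6%), near the 30.3% and 10.2% of all genes. Their median log2 fold change was -0.24, near the -0.23 of all genes. Among 12 other sensors and regulators 7 fell and 1 rose (58.3% and 8.33%, median -0.53). Mbtps1, the site-1 protease that cleaves ATF6, fell from 14.5 ± 1.19 to 8.33 ± 0.436 (SD, n = 3 per group, limma log2 fold change -0.73, adjusted p = 0.00315). The ER membrane protein gene Tmbim6 fell (-0.66), and Bbc3, which encodes the apoptosis protein PUMA, rose (0.46). Creb3l1, whose product is an ATF6-like factor, is counted among the 7 (-0.63). Its FPKM was 0.245, 0.48 and 0.393 in DDK and 1.15, 1.15 and 1.08 in vehicle. Creb3l1 passed the filter of 0.5 only through the vehicle livers, so its call is no support for a fall. Creb3l2 (-0.91), also among the 7, stood at 0.21, 0.329 and 0.538 in DDK and at 0.71, 1.72 and 2.49 in vehicle. Among DDK livers only replicate 3 reached 0.5, so Creb3l2 too passed through the vehicle livers and is no support for a fall. Among 11 genes of the PERK output 4 fell and 1 rose as deposited (36.4% and 9.09%), near the shares over all genes. After median-ratio scaling 1 fell and 2 rose (16.2% and 18% of all genes). After quantile normalization 0 fell and 2 rose (16.3% and 17.7% of all genes), and after length correction 1 fell and 1 rose (17.3% and 16.1%). Atf4, the transcription factor translated when PERK is active, rose at the transcript level, to 72.1 ± 6.88 in DDK against 55.8 ± 1.53 in vehicle (0.36, adjusted p = 0.0409). That call did not hold under TPM. The Atf4 target Nupr1 (-1.08) and the stress genes Sesn2 (-0.72) and Ddit4 (-0.91) fell as deposited. Each lost its call after quantile normalization and after median-ratio scaling, and each had overlapping groups. The highest DDK and lowest vehicle livers stood at 3.61 and 2.95 for Nupr1, 2.6 and 2.43 for Sesn2, and 2.79 and 2.71 for Ddit4. For Ddit4, vehicle replicate 1 stood far above the rest at 8.1. Asns, another target counted among the 4 (-0.48), lost its call after quantile normalization but kept it after median-ratio scaling (-0.38). Its FPKM was 0.397, 0.143 and 0.392 in DDK and 0.843, 0.903 and 0.722 in vehicle. Asns passed the filter only through the vehicle livers, so its call is no support for a fall, as deposited or after median-ratio scaling. Ddit3, which encodes CHOP, stood at 0.04 ± 0.20 SE. Transcript levels do not measure translation of Atf4.

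Genes that act before and after folding were mixed. Of 24 other genes of folding and disulfide formation 4 fell and 2 rose (16.7% and 8.33%, against 30.3% and 10.2% of all genes). The prolyl isomerases Ppib (0.81, adjusted p = 0.00347, at 305 ± 24.0 in DDK against 175 ± 28.1) and Fkbp11 (0.91) rose, and the thioredoxin-related Txndc12 (-0.65) and Tmx1 (-0.71) and the HSP70-like Hspa13 (-0.76) fell. Of 22 other degradation genes 10 fell and 3 rose (45.5% and 13.6%, against 30.3% and 10.2% of all genes). The ubiquitin-conjugating enzyme Ube2g2 (-1.06), the VCP co-factor Nploc4 (-0.94) and the ligase Rnf185 (-0.79) were among those that fell. Those that rose were Selenok (0.62), Aup1 (0.46) and Ube2j2 (0.40). Of 29 other translocation, signal peptidase and glycosylation genes 4 fell and 4 rose (13.8% each way). The signal recognition receptor Srpr (-1.03), the signal peptidase subunit Spcs1 (-1.11) and the oligosaccharyltransferase subunit Tusc3 (-1.03) fell. The channel subunit Sec61g (0.75), Krtcap2 (0.60) and Tram1 (0.45) rose. Of 15 ER-to-Golgi export genes 7 fell and 1 rose (46.7% and 6.67%). Sec24d, a cargo adaptor of the COPII coat, fell from 14.2 ± 3.05 to 4.89 ± 1.22 (-1.37, adjusted p = 0.00145), and its coat partner Sec23b (-1.01) and the cargo receptor subunit Mcfd2 (-0.64) fell. The KDEL receptor gene Kdelr2, whose product returns ER chaperones from the Golgi, rose (0.52). After median-ratio scaling these 113 genes split into 19 lower and 19 higher, against 36 and 12 as deposited. That is 16.8% each way, near the 16.2% lower and 18% higher of all genes under this scaling. The lower genes then numbered 4 of the 22 for degradation (18.2%), 3 of the 15 for export (20%) and 5 of the 12 sensors and regulators (41.7%). Those 5 include Creb3l1 and Creb3l2, which passed the filter through the vehicle livers, so this last share is no support for a fall.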

How the data were processed

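Liver RNA of 3 DDK and 3 vehicle mice was sequenced from 1.3 µg of total RNA per library with a kit that does not mark strand, per the labels' protocols. The authors deposited FPKM per gene symbol. The build was GRCm38 (mm10), per the submitters' processing notes, and the aligner, counter and annotation are not given in the sources used here. Whole fragments were recovered from the steps of the FPKM values (100.0% of 16573 genes above 0 within 0.01 of a fragment). Groups came from the sample titles.

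Genes that reached an FPKM of 0.5 in 3 or more libraries were tested on log2(FPKM + 1) with limma 3.58.1 (variance trend, R 4.3.3), and tables and promoters were handled in Python 3.11.15. Fold changes on this scale understate changes of low genes. The p-values weigh the group difference against the spread between livers within a group, which limma moderates toward a trend over all genes tested. The members, the lists of other genes and the rule for which genes are described with every value (the sensors, Xbp1, Hspa5 and up to 5 called genes per role) were chosen with earlier results of these data known. Alternatives were other pseudocounts (0.1 and 0.5), filters, scalings, a length correction (lowess, span 0.3), weights, variance models, a replicate block and each library left out, and limma's voom on recovered fragments, which was chosen after seeing the data. How reads matching several genes were counted is not stated. Calr has a named pseudogene, and exons of 10 members overlap a gene on the opposite strand (Hsp90b1, Dnajb9, Manf, Pdia3, Pdia6, Syvn1, Derl2, Sec61a1, Sec63 and Eif2ak3), so their values are less certain. Gene positions are from GENCODE M21 and promoters from RefSeq on GRCm38.p6.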

Additional observations from a re-analysis of the deposited data

How the results depend on the processing

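The number of lower members was 9 after median-ratio scaling, and that of higher members was 4 after it, 1 without a filter, 0 under TPM and 5 after length correction. Each library left out in turn gave 10 to 21 lower and 0 to 2 higher members, 2348 to 5686 genes called in all (2796 without DDK replicate 1, 2348 without DDK replicate 2, 2490 without vehicle replicate 3, against 4327) and 27 to 53 other pathway genes called (30, 27 and 29 without those libraries, against 48). The fewest lower members were left without DDK replicate 2. All genes split into 1093 higher and 3234 lower as deposited, and into 1924 and 1727 after median-ratio scaling. Sec61b turned from 0.22 to -0.38 after length correction. The cause of these shifts was not tested. The replicate block gave 18 lower and 2 higher members and changed no call of a member, and same-numbered livers did not deviate together (correlations 0.14, -0.15 and 0.06), so the numbers were not taken to pair the mice. Pseudocounts, the filter at an FPKM of 1, robust moderation, no variance trend, voom and leaving out DDK replicate 3 changed no member's call. Each tested member had 101 fragments or more in each library. The SE of Ero1a, the member with the fewest, was 0.20 as deposited and 0.36 with voom.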
